A study of Mus musculus with 5 samples.

Results

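Genes for chromatin remodelers and for enzymes that write or erase marks on histones and DNA were followed in the lens of embryonic day 14 mice with and without N-myc. The members were the rows of the count table whose symbol names a SMARC, ARID, CHD, KDM, KMT2, KMT5, HDAC, DNMT, TET or SETD gene, together with Ezh1, Ezh2, Eed, Suz12, Ep300 and Crebbp; Kdm3a and Kdm5d were left out by the rule. This gave 87 of the 12370 gene symbols, and all 87 passed the filter on low counts, the lowest count of any of them in any library being 16. Of these, 85 fall into 13 roles, and the other 2 rows are Smarca5-ps, annotated as a pseudogene, and Chd3os, named as an opposite-strand transcript of Chd3.

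The study compared 2 knockout with 3 control RNA sequencing libraries. Knockout embryos were Mlr10-Cre+/-; N-mycloxP/loxP, that is, Cre recombinase came from 1 copy of a lens-active transgene and acted on loxP-flanked N-myc alleles. Controls were Cre -/- and carried loxP-flanked alleles too, either N-mycloxP/loxP or N-mycloxP/loxP;c-mycloxP/loxP; the series text calls them WT, and the genotype of each control library is unknown here. Lens lysates of single animals were pooled before extraction, so a library is a pool of unstated size, and the effect of the transgene cannot be told apart from that of the deletion.

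Library totals were between 13162384 and 13746416 counts. Mycn, the targeted gene, stood at 57.3 and 81.9 CPM (counts scaled to library size) in the knockout lenses, against 162, 148 and 140 CPM in the controls (log2 fold change -1.11, edgeR adjusted p = 0.0097, lost only without control replicate 2, at 0.056). All 16 lens fibre and epithelium markers had counts in every library. The 2 knockout libraries stood apart from each other, at -50.3 and -11.9 on principal component 1 (62.3% of the variance), with the controls between 19.7 and 21.4. Summed levels of 9 periocular mesenchyme markers were 1875 and 293 CPM in the knockouts and 131 to 405 CPM in the controls. Those of 8 retina markers were 337 and 463 CPM in the knockouts and 172 to 282 CPM in the controls. Most of the retina sum was Sfrp2, at 281 and 309 CPM in the knockouts and 146 to 261 CPM in the controls. Sfrp2 did not pass (edgeR adjusted p = 0.081). Of these markers, 4 mesenchyme and 6 retina genes passed the test as higher in the knockouts. Of the 10 lens fibre markers 4 fell, namely Dnase2b, Bfsp1, Crygd and Mip, with log2 fold changes of -2.99, -1.62, -1.17 and -0.48. The part of these shifts in cell markers in the results was not tested.

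DNA in the nucleus is wrapped on histones to form nucleosomes. Remodelers of the SWI/SNF, ISWI and CHD families spend ATP to slide or evict them. Methyltransferases, acetyltransferases and their opposing demethylases and deacetylases change histone tails, while DNMT enzymes methylate cytosine and TET enzymes oxidise the methyl group. MYC proteins bind DNA with their partner MAX at the E-box, whose canonical form is CACGTG, and recruit acetyltransferase complexes. In the mouse, Smarca4 and the pair Ep300 and Crebbp are known to be needed for normal lens development.

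Promoter sequences were taken from RefSeq (GRCm38.p6, 250 bases before to 50 after a gene's start) to show where the canonical E-box lies among these genes. An entry was found for 66 of the 87 members. The letters CACGTG, which read the same on both strands, were in a window of 4 of the 66 (6.06%), against 12.03% of the 9319 tested genes with an entry and 7.15% of all 32851 windows. The 4 are Dnmt3a, Hdac5, Kdm4c and Kdm6a. None of the 3 members called lower and none of the 7 members called higher that had an entry held it. The windows below are 5′ to 3′ on the gene's strand with CACGTG in capitals: first the first-listed starts of Kmt5a (chr5:124439680-124439979, plus strand) and Setd6 (chr8:95715663-95715962, plus), which fell, then those of Dnmt3a (third-listed start, chr12:3891494-3891793, plus), Hdac5 (chr11:102230123-102230422, minus), Kdm4c (second-listed start, chr4:74251629-74251928, plus) and Kdm6a (chrX:18162325-18162624, plus), which did not pass the test.
Kmt5a: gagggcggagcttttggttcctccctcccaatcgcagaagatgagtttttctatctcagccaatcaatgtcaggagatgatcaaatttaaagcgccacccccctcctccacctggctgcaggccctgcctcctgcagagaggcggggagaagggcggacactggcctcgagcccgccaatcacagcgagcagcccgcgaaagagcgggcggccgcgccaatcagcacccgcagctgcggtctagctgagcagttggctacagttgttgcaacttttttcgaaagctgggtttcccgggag
Setd6: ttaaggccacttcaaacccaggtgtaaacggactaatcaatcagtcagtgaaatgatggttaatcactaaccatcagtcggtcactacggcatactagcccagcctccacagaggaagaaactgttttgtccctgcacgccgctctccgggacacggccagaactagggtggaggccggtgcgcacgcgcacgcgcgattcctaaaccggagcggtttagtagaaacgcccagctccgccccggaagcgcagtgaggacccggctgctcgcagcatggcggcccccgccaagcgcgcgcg
Dnmt3a: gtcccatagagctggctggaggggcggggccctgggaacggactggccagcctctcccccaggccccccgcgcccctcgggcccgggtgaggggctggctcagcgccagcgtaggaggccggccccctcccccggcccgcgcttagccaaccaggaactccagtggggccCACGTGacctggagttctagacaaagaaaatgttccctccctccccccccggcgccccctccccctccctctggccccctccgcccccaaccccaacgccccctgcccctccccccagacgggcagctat
Hdac5: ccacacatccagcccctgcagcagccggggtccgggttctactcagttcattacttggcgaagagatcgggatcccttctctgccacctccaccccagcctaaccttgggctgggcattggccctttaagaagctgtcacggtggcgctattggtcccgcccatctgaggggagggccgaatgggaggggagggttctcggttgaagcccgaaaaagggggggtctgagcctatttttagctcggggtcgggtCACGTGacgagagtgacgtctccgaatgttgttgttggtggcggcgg
Kdm4c: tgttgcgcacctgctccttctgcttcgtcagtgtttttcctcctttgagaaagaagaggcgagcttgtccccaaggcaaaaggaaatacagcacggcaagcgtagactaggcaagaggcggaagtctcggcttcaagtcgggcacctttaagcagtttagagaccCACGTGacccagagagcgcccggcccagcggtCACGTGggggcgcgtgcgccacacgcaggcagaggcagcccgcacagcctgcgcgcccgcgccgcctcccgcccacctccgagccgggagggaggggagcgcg
Kdm6a: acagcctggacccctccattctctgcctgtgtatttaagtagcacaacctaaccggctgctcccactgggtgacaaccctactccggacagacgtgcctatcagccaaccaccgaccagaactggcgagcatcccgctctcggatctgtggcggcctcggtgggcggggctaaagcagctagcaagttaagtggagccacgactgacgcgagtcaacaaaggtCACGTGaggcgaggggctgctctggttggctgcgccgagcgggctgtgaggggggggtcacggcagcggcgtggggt
The match begins 80 bases before the start in Dnmt3a and 27 bases before it in Kdm6a, and at base 4 of the transcript in Hdac5. Kdm4c holds 2 matches, the first of them 85 bases before the start. A match is a string of letters and was not tested for binding.

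Against controls, 10 of the 87 genes rose and 3 fell in the knockout lenses, and 74 did not pass the test (edgeR quasi-likelihood test, Benjamini-Hochberg adjusted p under 0.05 over all 12035 genes tested, here named called). Setd6, Kmt5a and Suz12 fell. Arid5a, Arid5b, Chd3, Hdac4, Hdac7, Kmt2b, Setd1a, Setd1b, Smarcc2 and Tet2 rose. The share called higher was 11.5%, with 7.98% of all tested genes called higher, and the share called lower was 3.45%, with 8.51% of all tested genes. In both directions together 14.9% of the members and 16.5% of all genes were called, so the group as a whole was not called more often than the transcriptome around it. Because these are pooled whole lenses, a change in the number of cells of a type and a change of RNA per cell cannot be told apart.

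The changes were small. The median log2 fold change was 0.11 over the members and 0.00 over all tested genes, and 6 of the 13 called members differed by 1.5-fold or more. Both knockout libraries lay above all controls for 32 members (36.8%, against 25.5% of all tested genes) and below all controls for 16 (18.4%, against 27%). Library by library, the median of the members relative to the mean of the controls was 0.17 and 0.09 (log2) in the knockouts and 0.09, -0.06 and -0.05 in control replicates 1 to 3. Knockout replicate 2 therefore overlapped control replicate 1. The split of calls also moved with scaling: 76.9% of the 13 calls were rises with TMM scaling, 89.5% of 19 with scaling to plain library totals, and 28.6% of 7 after a length and GC correction, in which the trend of counts with the length and GC content of transcripts was fitted in each library and subtracted (48.4%, 70.3% and 39.3% over all genes). After that correction the shares of the members called were 2.30% higher and 5.75% lower, with 3.93% and 6.08% of all genes.

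**Figure D1:**
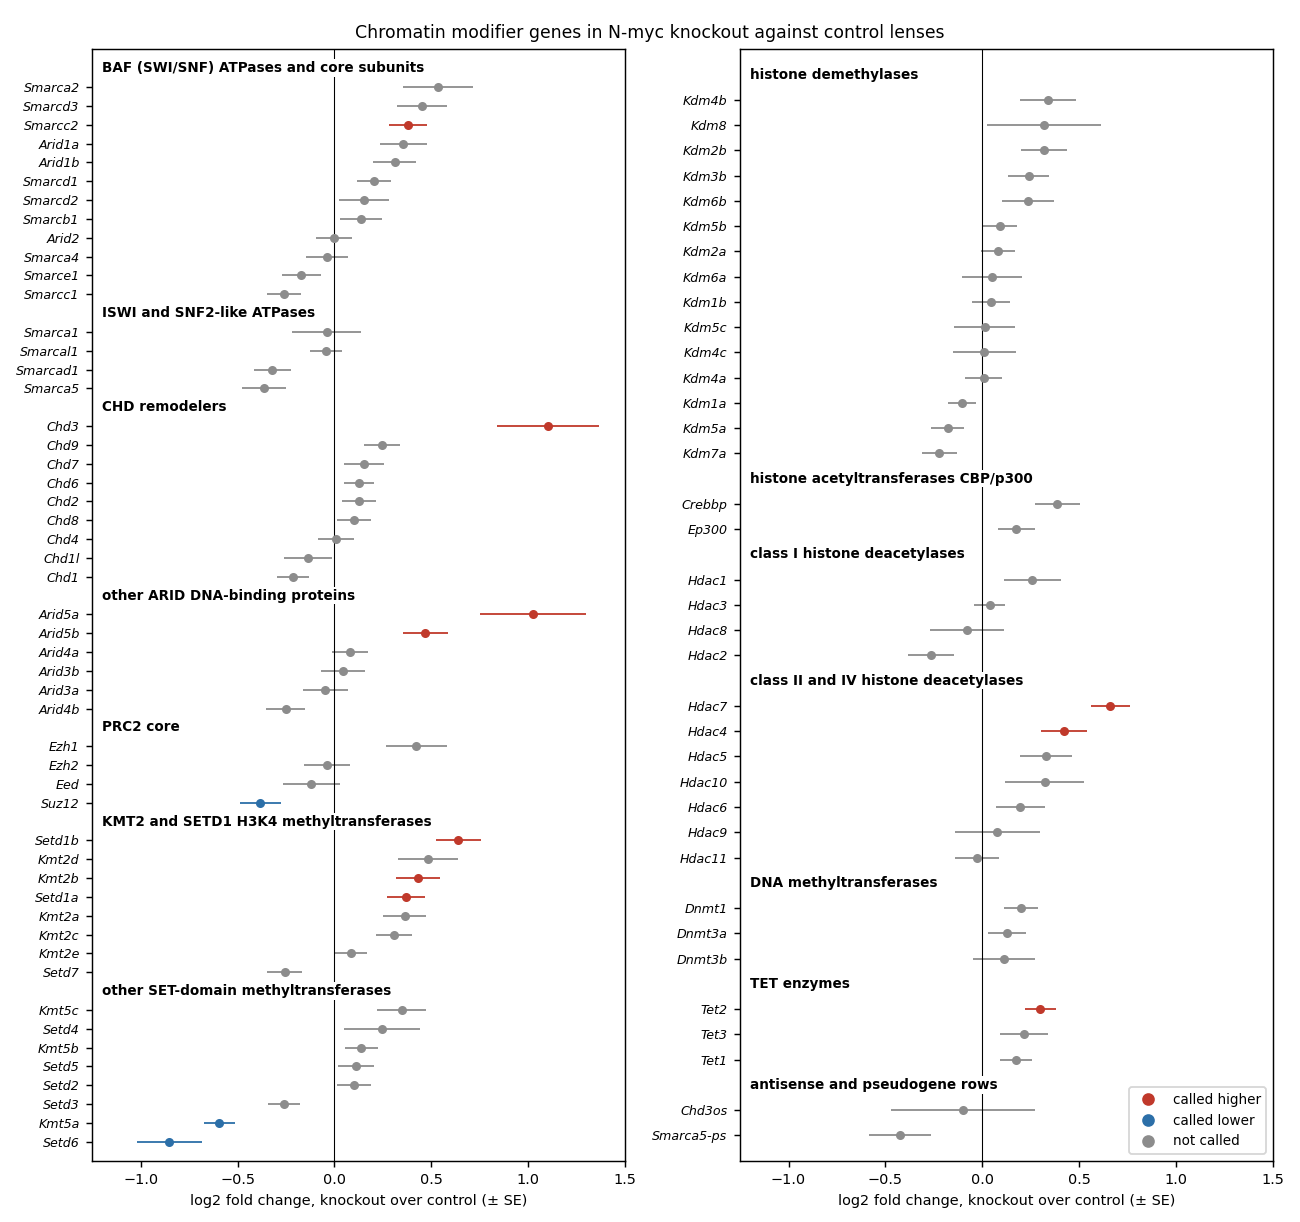
Log2 fold change (knockout over control, x axis) of each of the 87 genes with its standard error, grouped by role; red points were called higher, blue points lower and grey points did not pass the test. Most values lie between -0.5 and 0.5, Setd6 being lowest at -0.85 and Chd3 highest at 1.10.

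Among the SET-domain methyltransferases outside the H3K4 group, 2 of 8 fell (25%, against 8.51% of all tested genes). Of the same 8, 0 rose (against 7.98%). Kmt5a (ENSMUSG00000049327, chr5:124439930-124462308) encodes the enzyme that places the first methyl group on lysine 20 of histone H4. It stood at 104 and 113 CPM in the knockout libraries, against 166, 163 and 161 CPM in the controls. The knockout libraries are close together, the controls closer still, and the groups are far apart. It fell 1.51-fold (means 108 ± 6.36 and 163 ± 2.83 CPM, SD, n = 2 knockout and 3 control pools, log2 fold change -0.59, SE 0.079, edgeR adjusted p = 0.0097). Per kilobase of its longest transcript Kmt5a was among the more abundant members, at 39.5 CPM per kb in the knockouts and 59.6 in the controls, with a median over members of 16.9 and 17.4. It passed in 13 of 14 alternative analyses, after the length and GC correction too (log2 fold change -0.54, adjusted p = 0.0051); the exception was the fit without control replicate 2 (adjusted p = 0.056, alternatives spanning 5.5e-09 to 0.056).

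Setd6 (chr8:95715881-95719010) encodes a lysine methyltransferase known for methylating the NF-kappaB subunit RelA. It had 10.7 and 15.5 CPM in the knockouts, against 23.7, 23.3 and 24.1 CPM in the controls. Both knockout libraries were low, replicate 1 the lower, while the controls were nearly equal. It fell 1.80-fold (log2 fold change -0.85, SE 0.17, edgeR adjusted p = 0.021). After the length and GC correction the log2 fold change was -0.88, and Setd6 passed in 11 of 14 alternatives. It did not pass without control replicate 2, control replicate 3 or knockout replicate 1 (adjusted p = 0.082, 0.069 and 0.069). Kmt5b and Kmt5c, which add the further methyl groups to the same H4 lysine, did not pass, with log2 fold changes of 0.14 and 0.35. Setd2, which trimethylates H3K36, was at 0.10 and Setd5 at 0.11.

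Of the 8 genes grouped here as H3K4 methyltransferases, 3 rose and 0 fell, and 6 of the 8 had both knockout libraries above every control. The group takes in Kmt2e, and the enzyme activity of the products was not measured. The shares called higher and lying above every control were 37.5% and 75%, against 7.98% and 25.5% of all tested genes. Setd1a, Setd1b, Kmt2b and Kmt2d lie in the range of 55.5% to 78.9% GC. Over all tested genes in that range the shares were 18.0% and 48.3%. Setd1b (chr5:123142193-123168629), which encodes a catalytic subunit of the SET1 complexes, stood at 136 and 127 CPM in the knockouts, against 98.1, 80.0 and 75.7 CPM in the controls. The groups did not overlap, and control replicate 1 was the nearest to the knockouts. Setd1b rose 1.56-fold (log2 fold change 0.64, SE 0.12, edgeR adjusted p = 0.017). The paralog Setd1a rose 1.29-fold, with 97.1 and 85.7 CPM in the knockouts against 77.6, 67.0 and 67.6 CPM in the controls. Kmt2b, a methyltransferase of the MLL family, rose 1.35-fold, with 167 and 154 CPM in the knockouts against 137, 108 and 112 CPM in the controls. For the 3 genes the adjusted p over the alternatives spanned 3.8e-05 to 0.23 (Setd1b), 0.016 to 0.94 (Setd1a) and 0.0057 to 0.97 (Kmt2b).

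Kmt2a, Kmt2c and Kmt2d had values between 0.31 and 0.48 without passing, and Kmt2e was at 0.08 (log2 fold change, edgeR adjusted p = 0.52). DESeq2 called Kmt2a, Kmt2c and Kmt2d higher, and they passed in 4, 5 and 4 of 14 alternatives. Kmt2d, an enhancer H3K4 monomethyltransferase, had 656 and 577 CPM in the knockouts against 542, 407 and 377 CPM in the controls (log2 fold change 0.48, SE 0.15, edgeR adjusted p = 0.066). The paralog Kmt2c had 333 and 310.0 CPM in the knockouts, against 282, 249.5 and 248 CPM in the controls (log2 fold change 0.31, edgeR adjusted p = 0.054). Kmt2a was at 0.36 (edgeR adjusted p = 0.057). In all of these genes control replicate 1 was the highest control. The transcripts of Setd1a, Setd1b, Kmt2b and Kmt2d are 57.0% to 59.1% GC. After the length and GC correction the log2 fold changes were 0.18 for Setd1b (adjusted p = 0.076), 0.01 for Setd1a, -0.03 for Kmt2b and -0.05 for Kmt2d, and 0 of the 8 genes were called higher. Setd7, an H3K4 monomethyltransferase that also acts on other proteins, had a negative value without passing (log2 fold change -0.26, edgeR adjusted p = 0.085) and was called lower after that correction (-0.31, adjusted p = 0.028, alternatives spanning 0.028 to 0.37). It shares exon sequence with 5031434O11Rik on the other strand.

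Of 12 genes for BAF (SWI/SNF) subunits, 1 rose (8.33%, against 7.98% of all tested genes) and 0 fell (against 8.51%). An unadjusted edgeR p under 0.05 was found for 7 of the 12. DESeq2 called 5 higher (Arid1a, Arid1b, Smarca2, Smarcc2 and Smarcd3) and 1 lower (Smarcc1). After the length and GC correction 0 were called higher and 2 lower. Smarcc2 encodes BAF170, a core scaffold subunit. It stood at 181 and 153 CPM in the knockouts, against 133, 131 and 121 CPM in the controls, and rose 1.30-fold (log2 fold change 0.38, SE 0.096, edgeR adjusted p = 0.037), and after the length and GC correction it was at 0.16 (adjusted p = 0.16, alternatives spanning 0.0058 to 0.35). Its paralog Smarcc1, which encodes BAF155, had 385 and 408 CPM in the knockouts against 499, 457 and 467 CPM in the controls. The Smarcc1 groups did not overlap but the fold change of -0.26 (log2) did not pass (edgeR adjusted p = 0.074); it did with DESeq2 and after the length and GC correction (-0.31, adjusted p = 0.026, alternatives spanning 0.011 to 0.32). Smarcc1 shares exon sequence with Dhx30 on the other strand, and without a stated strand setting their reads cannot be told apart.

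The alternative ATPases of the complex, Smarca4 (BRG1) and Smarca2 (BRM), differed in level. Per kilobase, Smarca4 was at 65.7 CPM in the knockouts and 67.4 CPM in the controls, and Smarca2 at 8.42 CPM in the knockouts and 5.81 CPM in the controls. Smarca4 had a log2 fold change of -0.04 (SE 0.11) and was called lower only after the length and GC correction (-0.35, adjusted p = 0.031, 14 alternatives spanning 0.031 to 0.99). Smarca2 had 61.55 and 38.2 CPM in the knockouts against 34.1, 34.2 and 35.0 CPM in the controls (log2 fold change 0.53, SE 0.18, edgeR adjusted p = 0.073). Most of this excess was in knockout replicate 1. Arid1a and Arid1b, the alternative DNA-binding subunits, had log2 fold changes of 0.36 and 0.31 (edgeR adjusted p = 0.077 and 0.083), and -0.01 and 0.02 after the length and GC correction. Arid2, the subunit of the polybromo form, was at 0.00.

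Of 9 CHD genes, 1 rose (11.1%, against 7.98% of all tested genes). Chd3 (chr11:69343273-69369406) encodes an ATPase of the NuRD complex that is abundant in neurons. It stood at 135 and 65.4 CPM in the knockouts, against 42.8, 42.9 and 54.6 CPM in the controls. Knockout replicate 1 was far above the rest and knockout replicate 2 little above the highest control. The fold was 2.14 (log2 fold change 1.10, SE 0.26, edgeR adjusted p = 0.033). The call was lost in every fit that left out a library except knockout replicate 2. The log2 fold change was 0.49 without knockout replicate 1 (adjusted p = 0.14) and 0.73 after the length and GC correction (adjusted p = 0.12, alternatives spanning 0.00027 to 0.14). Knockout replicate 1 was also the library with the high mesenchyme markers (1875 CPM against 293 CPM in knockout replicate 2). Its skeletal muscle markers were high too (297 CPM against 14.1 CPM in knockout replicate 2). The part of other cells in the rise of Chd3 was not tested. Chd3os had 1.72 and 1.148 CPM in the knockouts against 1.57, 1.37 and 1.67 CPM in the controls.

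Chd4, the paralog of Chd3 in NuRD, was the most abundant member per kilobase, at 117 CPM in both groups. It had 789.8 and 782 CPM in the knockouts, against 837, 753 and 755 CPM in the controls, with a log2 fold change of 0.01 (SE 0.092). Chd7, the gene mutated in CHARGE syndrome in humans, was at 0.15 (edgeR adjusted p = 0.31). Of the 4 ISWI and SNF2-like genes, 0 were called by edgeR or limma-voom, 2 had an unadjusted p under 0.05, and DESeq2 called those 2 lower. They were Smarca5, the catalytic ISWI subunit (log2 fold change -0.36, SE 0.11, edgeR adjusted p = 0.062), and Smarcad1, a remodeler tied to heterochromatin upkeep (-0.32, SE 0.096, edgeR adjusted p = 0.055). Smarcad1 had 72.7 and 83.0 CPM in the knockouts and 101, 89.9 and 100.3 CPM in the controls. Smarcal1, which anneals DNA at stalled forks, was at -0.04. The row Smarca5-ps, with -0.42, can share reads with Smarca5.

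**Figure D2:**
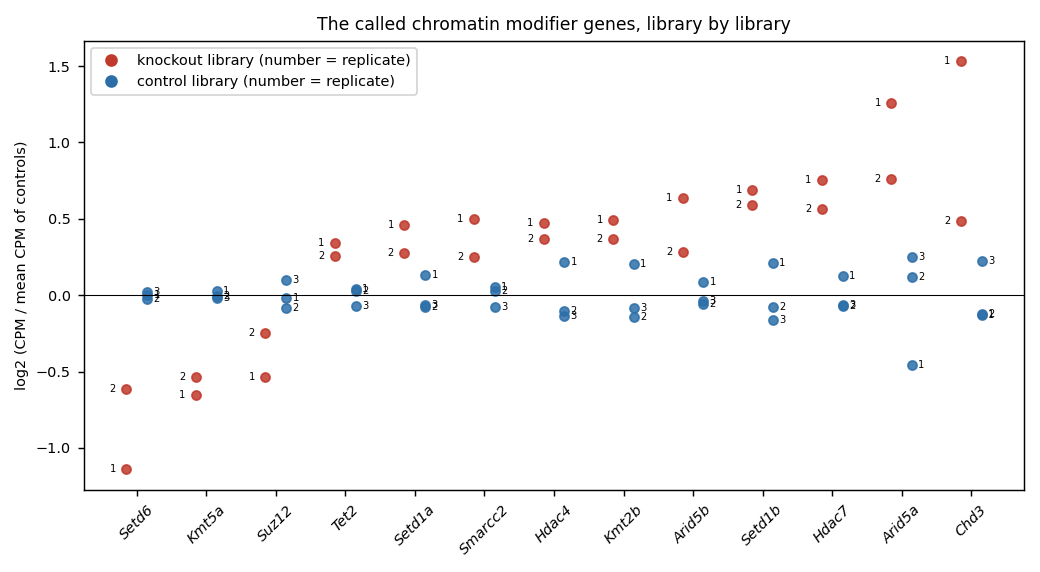
Log2 ratio (y axis) of CPM in each library to the mean CPM of the 3 controls for the 13 called genes (x axis); red points are knockout and blue points control libraries, numbered by replicate. In each gene the groups do not overlap, and in all 13 knockout replicate 1 is farther from the control mean than knockout replicate 2, most of all in Chd3.

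The ARID-domain genes outside the BAF complex had 2 rises among 6 (33.3%, against 7.98% of all tested genes). Arid5b (chr10:68092520-68278740), a DNA-binding cofactor known from adipocyte and cartilage development, stood at 71.7 and 56.2 CPM in the knockouts, against 49.1, 44.5 and 45.01 CPM in the controls. It rose 1.38-fold (log2 fold change 0.47, SE 0.12, edgeR adjusted p = 0.036). This rise passed after the length and GC correction (edgeR adjusted p = 0.043, log2 fold change 0.42), and in 9 of 14 alternatives. It did not pass with libraries blocked by replicate number, alone or together with that correction (edgeR adjusted p = 0.051 and 0.088). Nor did it pass without control replicate 2 or control replicate 3 (edgeR adjusted p = 0.12 and 0.11), or without knockout replicate 1 (log2 fold change 0.29). The replicate block also sets control replicate 3 apart from the comparison, since no knockout library has its number. Arid5a, an RNA- and DNA-binding protein known for stabilising inflammatory mRNA, had only 9.02 and 6.38 CPM in the knockouts, against 2.74, 4.10 and 4.48 CPM in the controls. It rose 2.04-fold (edgeR adjusted p = 0.042) and was scarce, at 1.40 CPM per kb in the knockouts and 0.69 CPM per kb in the controls, the lowest control level among the members with a known length. It passed in 6 of 13 alternatives (adjusted p spanning 0.019 to 0.23), the corrected fit not among them (log2 fold change 0.72, adjusted p = 0.15). Arid3a, Arid3b, Arid4a and Arid4b lay between -0.25 and 0.08 and did not pass.

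The core of Polycomb repressive complex 2, which trimethylates H3K27, has 4 genes here, of which 1 fell (25%, against 8.51% of all tested genes). Suz12 (chr11:79993106-80034123), a structural subunit that the enzyme needs for activity, had 84.9 and 104 CPM in the knockouts against 121, 116 and 132 CPM in the controls. It fell 1.30-fold (log2 fold change -0.38, SE 0.11, edgeR adjusted p = 0.046). The call was near the threshold, passed in 6 of 14 alternatives and was lost after the length and GC correction (-0.16, adjusted p = 0.18, alternatives spanning 0.013 to 0.38). Its partners did not follow it past the test. The catalytic subunit Ezh2 had 47.5 and 60.7 CPM in the knockouts and 53.9, 53.3 and 59.5 CPM in the controls (log2 fold change -0.04), and Eed was at -0.12. Ezh1, the alternative catalytic subunit, typical of cells that have stopped dividing, had 25.8 and 20.01 CPM in the knockouts against 18.7, 15.3 and 17.2 CPM in the controls (log2 fold change 0.42, SE 0.16, edgeR adjusted p = 0.092). Per kilobase, Ezh2 was more abundant than Ezh1 in both groups, at 19.4 against 5.45 CPM in the knockouts and 19.9 against 4.06 CPM in the controls.

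Of the 7 class II and class IV histone deacetylase genes, 2 rose (28.6%, against 7.98% of all tested genes). Hdac7 (chr15:97792664-97844502), a class IIa deacetylase known from endothelial cells, stood at 77.3 and 67.9 CPM in the knockouts, against 50.2, 43.6 and 43.9 CPM in the controls. It rose 1.58-fold (log2 fold change 0.66, SE 0.10, edgeR adjusted p = 0.013), the smallest adjusted p among the rises. Hdac7 is 60.2% GC, the highest among the members, and after the length and GC correction its log2 fold change was 0.23 (adjusted p = 0.069, alternatives spanning 1.3e-05 to 0.14). It also shares exon sequence with Slc48a1 on the other strand. Of the 7 endothelial markers 0 were called higher and 1, Flt1, lower (log2 fold change -0.35, edgeR adjusted p = 0.045), and their summed level was 216 and 225 CPM in the knockouts and 217 to 264 CPM in the controls. Hdac4, of the same class, rose 1.34-fold, with 128 and 119 CPM in the knockouts against 107, 85.7 and 83.6 CPM in the controls (edgeR adjusted p = 0.045, alternatives spanning 0.011 to 0.25). Hdac5, Hdac10 and Hdac6 had log2 fold changes of 0.33, 0.32 and 0.20 without passing.

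The class I deacetylases, which work in NuRD, SIN3 and CoREST complexes, had 0 of 4 called by edgeR, DESeq2 or limma-voom and 0 at an unadjusted edgeR p under 0.05. Hdac2 had 73.1 and 73.7 CPM in the knockouts, against 74.2, 94.1 and 96.3 CPM in the controls, so that control replicate 1 stood with the knockouts (log2 fold change -0.27, edgeR adjusted p = 0.15). Hdac1 was at 0.26 and Hdac3 at 0.04. Of the acetyltransferase pair, Crebbp had 332 and 276 CPM in the knockouts against 259, 218 and 221 CPM in the controls (log2 fold change 0.39, SE 0.11, edgeR adjusted p = 0.053), and Ep300 was at 0.18 (edgeR adjusted p = 0.23). Neither passed with edgeR or limma-voom, 1 of them had an unadjusted p under 0.05, and DESeq2 called Crebbp higher.

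Of 15 histone demethylase genes, 0 were called by edgeR, DESeq2 or limma-voom, and 3 had an unadjusted edgeR p under 0.05. Of all tested genes, edgeR called 16.5% in either direction. Their log2 fold changes ran from -0.22 for Kdm7a to 0.34 for Kdm4b, with a median of 0.05. Kdm1a, the flavin-dependent H3K4 demethylase, was at -0.10, and Kdm2a, an H3K36 demethylase, at 0.08. Kdm6b, an H3K27 demethylase, had 244 and 221 CPM in the knockouts against 234, 190.0 and 169 CPM in the controls (log2 fold change 0.24, edgeR adjusted p = 0.24).

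The X-linked demethylases varied between libraries of the same group. Kdm5c, which removes methyl groups from H3K4, had 315 and 399.7 CPM in the knockouts, against 424, 334 and 306 CPM in the controls. Kdm6a, the X-linked counterpart of Kdm6b, had 65.4 and 84.4 CPM in the knockouts, against 85.1, 70.4 and 61.3 CPM in the controls. In both genes the libraries ran in the same order, with control replicate 1 highest, then knockout replicate 2, control replicate 2, knockout replicate 1 and control replicate 3. That is also the order of Xist, the RNA of the inactive X chromosome in female cells, which had 534 and 2043 CPM in the knockouts and 2509, 963 and 4.86 CPM in the controls. The Y-linked gene Ddx3y had 31.5 and 12.6 CPM in the knockouts and 8.15, 49.7 and 76.7 CPM in the controls, nearly the reverse order. Kdm5c and Kdm6a are known to escape X inactivation in the mouse. The pools thus differed in their content of these sex-linked RNAs within each group, and the fold changes of Kdm5c and Kdm6a were 0.01 (SE 0.16) and 0.05 (SE 0.15) on the log2 scale. Of the 5 X-linked members, 0 were called by edgeR (0 at an unadjusted p under 0.05), DESeq2 or limma-voom. The other 3, Smarca1, Hdac6 and Hdac8, did not run in the order of Xist.

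**Figure D3:**
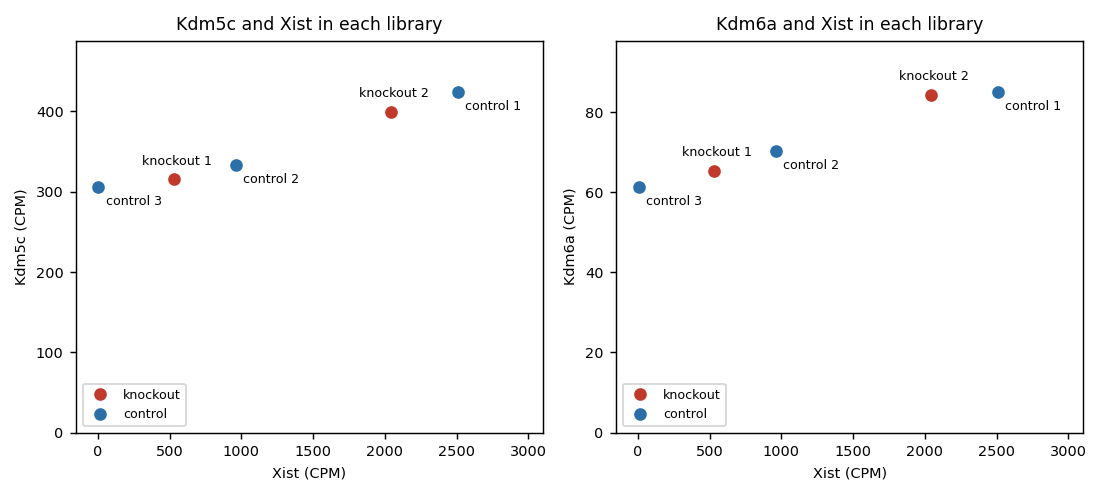
Kdm5c and Kdm6a (CPM, y axes) against Xist (CPM, x axes) in each library; red points are knockout and blue points control libraries. Both genes are lowest in control replicate 3, where Xist is at 4.86 CPM, and highest in control replicate 1, where Xist is at 2509 CPM, with knockout libraries in between.

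Among enzymes of DNA methylation, 0 of 3 DNMT genes were called by edgeR, DESeq2 or limma-voom, with 1 at an unadjusted edgeR p under 0.05. Dnmt1, the maintenance methyltransferase, had 173 and 181 CPM in the knockouts against 167, 148 and 146 CPM in the controls (log2 fold change 0.20, SE 0.087, edgeR adjusted p = 0.14). The de novo enzymes differed in level, Dnmt3a being at 32.2 CPM per kb in the knockouts and 29.5 in the controls, and Dnmt3b at 2.76 in the knockouts and 2.55 in the controls. Their log2 fold changes were 0.13 and 0.11. Of the 3 TET genes, 1 rose (33.3%, against 7.98% of all tested genes). It was Tet2 (chr3:133463679-133545139), with 84.9 and 80.0 CPM in the knockouts against 68.9, 68.2 and 63.9 CPM in the controls. The 2 groups were each tight and did not overlap. The rise was 1.23-fold (log2 fold change 0.30, SE 0.081, edgeR adjusted p = 0.043) and passed after the length and GC correction (0.29, adjusted p = 0.044). It passed in 8 of 14 alternatives (range of adjusted p 0.025 to 0.23). Per kilobase Tet3 was the most abundant of the 3, at 40.3 CPM in the knockouts and 34.7 CPM in the controls. Tet3 had a log2 fold change of 0.21 and Tet1 one of 0.17, and neither passed.

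Fold changes of the members were also set against the composition of their transcripts. Among the 13 called genes GC content ran from 41.6% in Suz12 to 60.2% in Hdac7, with rises at 45.4% (Tet2) and 47.4% (Arid5b) and a fall at 55.4% (Setd6). Length and GC content of the longest transcript were known for 86 of the 87 genes. The transcripts were long, with a median of 5896 bases against 3482 for all tested genes, and had a median GC content of 51.1% against 49.7%. When all tested genes were cut into 5 equal classes of GC content, 17 members fell into the highest (55.5% to 78.9%) and 15 into the lowest (31.0% to 43.9%). In the highest class 5 of the 17 members rose and 0 fell, with a median log2 fold change of 0.35, while all genes of that class had a median of 0.26 and 18.0% called higher. In the lowest class 0 of 15 rose and 1, Suz12, fell, with a median of -0.21 beside -0.24 for all genes of the class, of which 1.57% were called higher and 21.0% lower, against 6.67% of the members lower. Across the 86 genes the rank correlation of log2 fold change with GC content (Spearman's rho) was 0.60, against 0.46 over 11804 genes; these genes come from the same 5 libraries and are not replicates.

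Control replicate 1 lay between the other controls and the knockouts on this scale. Relative to the mean of the controls, the 17 members of the highest GC class had medians of 0.42 and 0.28 (log2) in the knockouts and of 0.13, -0.07 and -0.15 in control replicates 1 to 3. The 15 members of the lowest class had medians of -0.23 and -0.20 in the knockouts and of -0.08, 0.02 and 0.05 in the controls. After the length and GC correction rho was -0.15 over the members, the median log2 fold change was 0.01, and 2 members were called higher and 5 lower. Of these 7, Arid5b, Tet2, Kmt5a and Setd6 were also among the 13. Smarca4, Smarcc1 and Setd7 were not.

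**Figure D4:**
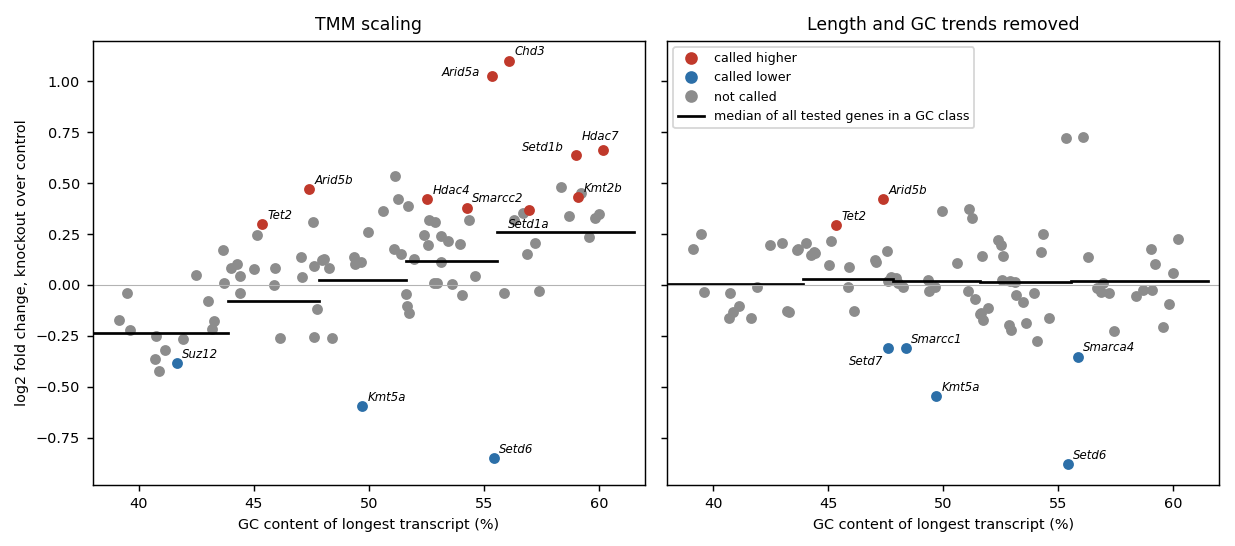
Log2 fold change (knockout over control, y axes) against GC content of the longest transcript (x axes) for 86 members, with TMM scaling on the left and after the length and GC correction on the right; black lines are medians of all tested genes in 5 GC classes, drawn within the plotted range. On the left the values climb with GC content, and on the right Arid5b and Tet2 are called higher and Kmt5a, Setd6, Setd7, Smarcc1 and Smarca4 lower.

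Calls depended on single libraries. In all 13 called genes knockout replicate 1 lay farther from the control mean than knockout replicate 2. In edgeR fits without control replicate 2, 0 members were called higher and 0 lower, although 26 had an unadjusted p under 0.05. Without control replicate 3 there were 0 higher and 1 lower (24 at an unadjusted p under 0.05), and without knockout replicate 1 again 0 and 1 (14 at an unadjusted p under 0.05). The 1 lower gene was Kmt5a in both fits. Without control replicate 1, 18 rose and 3 fell, and without knockout replicate 2, 14 rose and 5 fell. With all libraries DESeq2 called 18 higher and 7 lower, and limma-voom 9 and 3. The loss of edgeR calls was not limited to the members. Over all tested genes, 960 were called higher and 1024 lower when every library was used. These counts fell to 21 and 17 once control replicate 2 was dropped. They were 132 and 105 when control replicate 3 was the library removed.

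**Figure D5:**
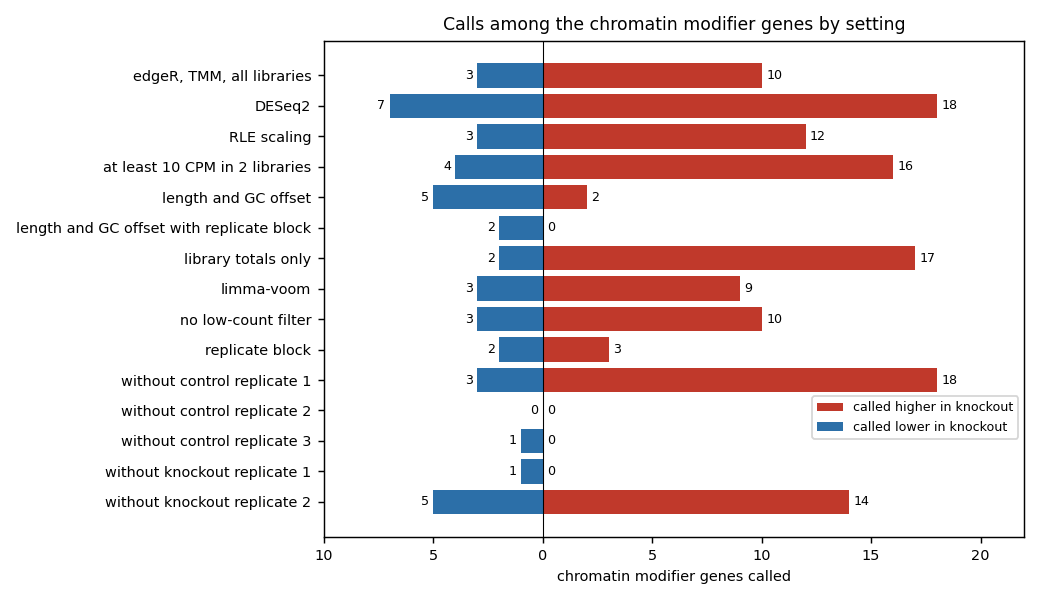
Number of the 87 genes called higher (red, to the right) and lower (blue, to the left) in the knockout under each analysis setting (y axis). The bars run from 18 higher and 7 lower with DESeq2 to none without control replicate 2; in each of the other settings between 1 and 7 genes are called lower, Kmt5a among them.

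Partners of these enzymes from 11 textbook lists were counted in the same fit. Of 119 listed genes 111 were tested, of which 8 rose and 6 fell, with a median log2 fold change of 0.07. The shares were 7.21% higher and 5.41% lower, against 7.98% and 8.51% of all tested genes. In both directions together 12.6% of the partners and 16.5% of all genes were called, so the partners were not called more often than all genes. After the length and GC correction 6 of the 111 partners were called higher and 6 lower, with 3.93% and 6.08% of all genes. Among 15 further BAF subunits, Phf10 and Brd7 fell and Dpf3 and Bcl11a rose. Phf10, a subunit of the progenitor form of the complex, had 67.6 and 68.7 CPM in the knockouts against 87.3, 85.7 and 87.7 CPM in the controls (1.27-fold lower, edgeR adjusted p = 0.025), and did not pass after the length and GC correction (log2 fold change -0.14, adjusted p = 0.18). Bcl11a had 13.2 and 5.88 CPM in the knockouts against 2.27, 1.59 and 3.57 CPM in the controls (3.83-fold higher, edgeR adjusted p = 0.025), and is also a known gene of neurons. Bcl11a was still called higher after the length and GC correction (log2 fold change 2.01, edgeR adjusted p = 0.029). Of 15 Polycomb repressive complex 1 genes, Pcgf2, Cbx2 and Phc2 rose while Bmi1, Rnf2 and Pcgf6 fell. Bmi1, a RING finger partner of the H2A ubiquitin ligase, had 35.6 and 38.5 CPM in the knockouts against 51.4, 50.3 and 54.9 CPM in the controls (1.41-fold lower, edgeR adjusted p = 0.019), and Phc2 was 1.46-fold higher. After the length and GC correction neither passed (log2 fold changes -0.20 and 0.16).

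Of the remaining lists, 1 of 6 accessory genes of Polycomb repressive complex 2 rose, namely Phf1 (2.07-fold, 13.5 and 10.7 CPM in the knockouts against 5.80, 6.38 and 5.31 CPM in the controls). Among 10 further acetyltransferases Ncoa1, a nuclear receptor coactivator, rose 1.38-fold. Phf1 and Ncoa1 were still called higher after the length and GC correction (log2 fold changes 0.77 and 0.38, edgeR adjusted p = 0.033 and 0.031). Actr6, of the SRCAP complex, fell 1.84-fold among 13 genes of the INO80, SRCAP and TIP60 remodelers, with 6.44 and 6.89 CPM in the knockouts against 12.1, 13.4 and 11.5 CPM in the controls; after the length and GC correction it did not pass (log2 fold change -0.41, adjusted p = 0.15). In 5 lists edgeR and limma-voom called 0 genes: 9 NuRD genes (3 at an unadjusted edgeR p under 0.05, 1 called by DESeq2), 10 COMPASS genes (6 and 2), 10 H3K9, H3K36 and H3K79 methyltransferases (1 and 0), 7 sirtuins (0 and 0) and 6 DNA methylation partners (1 and 0).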

How the data were processed

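The authors deposited raw read counts per gene symbol; every value is whole, and library totals differ. Per the submitters' processing notes, which assign no roles, mm10 was the build and the tools included HTSeq 0.6.1, TopHat2 2.0.13 and Trim Galore 0.3.7, as well as Cufflinks 2.2.1 and DESeq2. Neither annotation nor strand setting is known here.

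Counts were tested in R 4.3.3 with edgeR 4.0.16 (filterByExpr with a minimum count of 10, TMM scaling, glmQLFit and glmQLFTest, no covariate) over 12035 genes, checked on simulated data. The SE is the log2 fold change over the square root of F. CPM use TMM-scaled totals. Alternatives were DESeq2 1.42.0, limma-voom (limma 3.58.1), other scalings and filters, a replicate block, each library left out, and loess offsets (span 0.5) on length and GC content of the longest GENCODE vM21 transcript (GRCm38, the build mm10) for the 98.1% of genes with a value. The titles' replicate numbers served as names, and as the block in the fits with a replicate block. Members, roles and lists were chosen with earlier results of these data known. Genes named were Mycn, up to 4 called members a role by adjusted p (otherwise the 2 most abundant), called members past 1.5-fold, fixed paralog pairs and up to 2 called genes a partner list; others in the text were added after their values were seen. Libraries of a group differed by more than sampling noise (chi-square over its degrees of freedom 9.98 to 23.4). P-values measure the spread between pools.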

Additional observations from a re-analysis of the deposited data

How the results depend on the processing

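Of the 38 named members and Mycn under 14 alternatives, the called fold change of 1 gene, Kmt2b, changed sign (log2 fold change -0.0255 with the length and GC offset). Members called higher numbered 10 in the main analysis, 18 with DESeq2, 16 with at least 10 CPM in 2 libraries, 17 with library totals only, 3 with the replicate block, 2 with the length and GC offset and 0 with that offset and the replicate block together (17 at an unadjusted p under 0.05); leaving out each library in turn gave 0 to 18. Members called lower numbered 3, with 7 under DESeq2, 5 under the length and GC offset and 0 to 5 with a library left out. The members' median log2 fold change of 0.11 moved beyond the spread between libraries (0.076) to 0.20 with library totals only, 0.01 (0.0084) with the length and GC offset, and -0.0035 with that offset and the replicate block. Over all genes 960 were called higher and 1024 lower; the counts were 1511 and 637 with library totals only, 473 and 522 with the replicate block, 473 and 732 with the length and GC offset, and 234 and 382 with both, and with a library left out 21 to 1426 and 17 to 1291. Whether the numbers in the titles pair libraries could not be decided. Same-numbered knockout and control libraries had correlations of deviations from their group means of -0.093 and 0.0073 over 12035 genes, with only 2 such pairs. The deviations of 2 knockout libraries from their own mean mirror each other. The other numberings therefore gave the same sizes with the sign turned or moved (0.093 for knockout 2 with control 1, -0.0073 for knockout 1 with control 2). Fits with 1 knockout library assume that it varies like the controls. Fits with the replicate block in effect leave control replicate 3 out of the comparison, since no knockout library has its number. Where a call was lost, the cause was not tested, and fits without a library also have fewer samples.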
